A study of Mus musculus with 6 samples.

Results

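The kinetochore, spindle checkpoint and mitotic kinase genes are a set of 37 genes whose products attach chromosomes to the spindle, hold cells in mitosis until attachment is complete and then start anaphase. They are listed by gene name, and the list was drawn up with earlier results of these data known. All 37 were found in the deposited tables, among 51349 distinct gene names. Every member had at least 5 FPKM (fragments per kilobase of transcript, on a scale shared by the pools) in the higher pool of each comparison. None was therefore lost to a filter on low values. All but 2 sat in loci that carry their name alone. Dsn1 shared its locus with the predicted gene Gm14276, and Mad1l1 shared its locus with Gm43338, so reads of these partners could not be told apart.

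The kinetochore is a layered protein machine. Nucleosomes with the histone H3 variant CENP-A mark the centromere, an inner network of CENP proteins binds them, and the MIS12 and NDC80 complexes reach outward to grip microtubules. Kinetochores without microtubules recruit the checkpoint proteins BUB1, BUBR1, BUB3, MAD1, MAD2 and MPS1, which hold CDC20 back from the anaphase-promoting complex (APC/C). Aurora B and its partners correct wrong attachments, Aurora A and PLK1 build the spindle, and separase cuts cohesin once its inhibitor securin is destroyed. Embryonic stem cells divide rapidly and transcribe most of these genes at readily measured levels.

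The RNA came from mouse embryonic stem cells derived from C57BL/6J blastocysts. Cells of all groups carried floxed Mll1 alleles and a Cre-ER transgene (Mll1fl/fl; Cre-ER TM), and the labels name no tamoxifen. MLL1 is a histone H3 lysine 4 methyltransferase. Some cells were left untreated. Others received 1 µM 1α,25-dihydroxyvitamin D3 (VD3, active vitamin D hormone) for 5 days, or the same VD3 with 100 µM MM-401, an MLL1 inhibitor, for 5 days. Each group had 2 biological duplicates and grew with leukemia inhibitory factor on mouse embryonic fibroblast feeder cells. No group received MM-401 alone, so its effect without VD3 could not be assessed.

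The tables give 1 pooled value per group, so the spread between duplicates is unknown and no difference below has a replicate check, a test or a p-value. The error given with an FPKM is the authors' own confidence interval, whose level is not stated. The column of the untreated pool and the column of the VD3+MM-401 pool have name endings that the labels do not explain, and another meaning of these names would change every comparison. The pools held 62081406 (untreated), 73383193 (VD3) and 73292511 (VD3+MM-401) estimated counts over all loci with a valid status, named or not. Relative to untreated, the median FPKM per estimated count was 1.0 in both treated pools. The difference between these totals therefore remains in FPKM as well as in the counts as deposited. In both treated pools the median gene stood above untreated, by 0.36 (VD3) and 0.27 (VD3+MM-401) on the log2 scale. Single members are therefore also given a relative log2 difference, which is their difference minus that of the median gene. The median gene differed by only 0.02 between the treated pools. All 14 embryonic stem cell markers examined reached 1 FPKM in every pool, with summed levels of 3467, 5357 and 6336 FPKM in the untreated, VD3 and VD3+MM-401 pools. FPKM summed over all genes was itself 1.36-fold (VD3) and 1.83-fold (VD3+MM-401) that of untreated cells. Of 18 feeder fibroblast markers, 8, 8 and 6 reached 1 FPKM, and their summed levels were 159.5, 148.9 and 124.9 FPKM, most of it Fn1. Postn, Lum and Prrx1 were at 0 in at least 1 pool, while 8 of 12 trophoblast and endoderm markers reached 1 FPKM and summed to 159, 246 and 235 FPKM. The part of these other cell types in the results was not tested. Nor can fewer cells in mitosis be told apart from less of these RNAs in each cell.

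Transcripts of the mitotic apparatus did not move as a block. Their summed level was 3089 FPKM in untreated cells, 3986 with VD3 and 4012 with VD3+MM-401, 1.29-fold and 1.30-fold that of untreated. These ratios are below those over all genes, but much of that sum lies outside the matched protein-coding genes. Those that are no members held 504081, 661531 and 753132 FPKM of 899985, 1.22e+06 and 1.65e+06. The median member differed from the median gene by only 0.04 (VD3) and -0.09 (VD3+MM-401) on the log2 scale. Their share of all estimated counts stayed between 0.473% and 0.484%. Within that share, the long outer kinetochore genes Cenpf and Cenpe and the checkpoint kinase gene Bub1 stood far lower in both treated pools, while Birc5, Cdc20 and Cenpw stood higher. The members covered a range from 11.2 FPKM (Cenpw) to 291 FPKM (Mad2l1) in the untreated pool, with a median of 54.6 FPKM. In the VD3 pool they covered 6.18 FPKM (Cenpf) to 395 FPKM (Cdc20), and in the VD3+MM-401 pool 4.47 FPKM (Cenpf) to 463 FPKM (Birc5).

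A gene was called higher or lower where its FPKM + 1 differed by at least 1 on the log2 scale (2-fold), the authors' intervals lay apart and the higher pool had at least 5 FPKM. Between VD3 and untreated cells, 0 members were called higher and 0 lower, where 0.926% of 10910 genes were called higher and 4.22% lower. Disregarding the intervals, 5 members were at least 2-fold lower (Cenpf, Cenpe, Bub1, Cenpi and Cenpq) and 1 was at least 2-fold higher (Cdc20), against 8.69% and 3.54% of all genes. The authors' count table gave tighter errors than the FPKM table for the median member. The standard deviation of a member's count was 16.7% to 17.2% of the count as a median in each pool. The count interval used here reached 2 standard deviations to either side. As a median, the FPKM interval reached 46.0% to 53.9% to either side, and at its narrowest 32.8% to 33.0%, so not every member had the tighter error by count. By estimated counts as deposited, with intervals of 2 standard deviations, 3 members were called lower with VD3 (Cenpf, Cenpe and Bub1), against 6.99% of genes, and 0 higher, against 1.01%. With the FPKM fold and the interval of the count, the same 3 were called lower (6.09% of genes) and 0 higher (0.797%). With counts scaled to the pools' totals, Cenpi and Spc25 were called lower as well, 5 members in all (9.42% of genes), and 0 higher (0.192%). A count of 3 lower members among 37 is near the background of 6.99%.

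Between VD3+MM-401 and untreated cells, which uses the same untreated pool, 2 members were called higher (Birc5 and Cenpw), where 4.26% of 10969 genes were called higher, and 0 were called lower, where 2.69% were. By estimated counts as deposited, Cenpw, Birc5 and Spc24 were called higher, against 5.22% of genes, and Cenpf and Cenpe lower, against 4.09%. With the FPKM fold and the interval of the count, Cenpw and Birc5 were called higher (4.7% of genes) and Cenpf and Cenpe lower (3.37%). Disregarding intervals, 3 members were at least 2-fold higher (Birc5, Cenpw and Cdc20), against 13.4% of genes, and 3 at least 2-fold lower (Cenpf, Bub1 and Cenpe), against 6.24%. After centring on the median gene, no member was called (1.72% of genes higher and 3.7% lower), and Birc5 and Cenpw no longer met the criterion. Between the treated pools, 0 members were called in either direction, where 0.83% of 10719 genes were called higher and 0.541% lower. The median member differed from untreated by 0.40 (VD3) and 0.18 (VD3+MM-401) on the log2 scale, against 0.30 and 0.21 over all genes with at least 1 FPKM. With VD3, 20 of 37 members stood above the median gene, and with VD3+MM-401, 15 of 37 did. The plot of FPKM by pool shows every member with its interval.

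**Figure D1:**
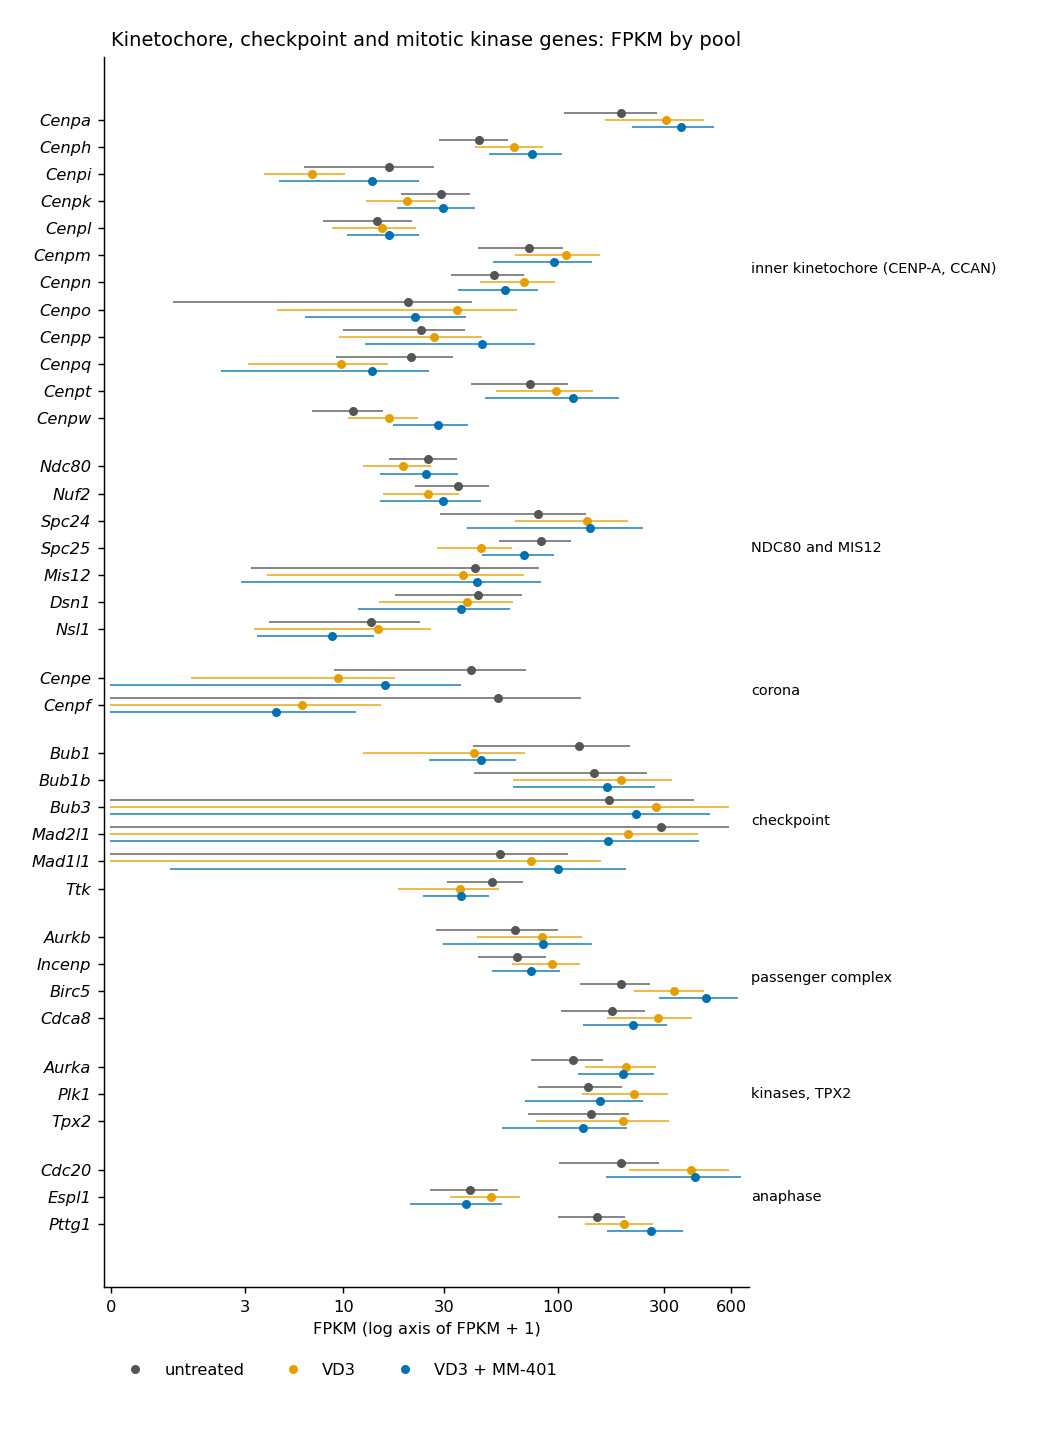
FPKM of the 37 members in the untreated (grey), VD3 (orange) and VD3+MM-401 (blue) pools, on a log axis of FPKM + 1, grouped by role. Points are pooled values and bars the authors' intervals. Cenpf, Cenpe and Bub1 stand left in both treated pools, with intervals that overlap those of untreated cells, and Birc5 and Cenpw stand right with VD3+MM-401.

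Many late cell cycle genes share promoter letters through which the DREAM and MuvB complexes and the factor NF-Y act. These are the cell cycle genes homology region (CHR) close to the transcription start and CCAAT boxes a short way upstream. Windows from 250 bases before to 50 bases after the annotated start were read from RefSeq (GRCm38.p6) for 32 of the 37 members, in 36 windows. Tpx2, Spc24, Aurkb, Nsl1 and Incenp were not in that table. Both strands were searched for CCAAT, for the CHR core in the spelling TTTGAA, and for CHR variants in the spelling TTCGAA or the spelling TTTAAA. A core and a CCAAT box can share a base where they abut, as they do in the Cenpw window. Windows are printed for the 8 members in the table that were called in 1 or more of the settings that used intervals, or that differed from untreated by 2-fold in both comparisons, 5′ to 3′ on the strand of the gene, with every CHR core, CHR variant and CCAAT match of either strand in capitals. The first 5 genes stood lower in both treated pools and the last 3 stood higher.
Cenpf, chr1:189688037-189688336, minus strand: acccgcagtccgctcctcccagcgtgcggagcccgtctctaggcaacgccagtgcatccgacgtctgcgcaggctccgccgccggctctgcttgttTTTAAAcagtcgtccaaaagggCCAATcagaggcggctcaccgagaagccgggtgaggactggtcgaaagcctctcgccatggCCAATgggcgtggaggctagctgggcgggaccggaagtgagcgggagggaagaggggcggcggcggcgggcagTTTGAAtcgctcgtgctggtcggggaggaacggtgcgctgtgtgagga
Cenpe, chr3:135212313-135212612, plus strand: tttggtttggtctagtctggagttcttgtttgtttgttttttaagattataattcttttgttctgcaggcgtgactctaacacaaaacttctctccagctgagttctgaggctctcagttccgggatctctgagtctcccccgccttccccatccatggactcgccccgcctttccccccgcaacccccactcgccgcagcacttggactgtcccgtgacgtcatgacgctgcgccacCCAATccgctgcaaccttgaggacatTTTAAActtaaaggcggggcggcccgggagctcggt
Bub1, chr2:127831810-127832109, minus strand: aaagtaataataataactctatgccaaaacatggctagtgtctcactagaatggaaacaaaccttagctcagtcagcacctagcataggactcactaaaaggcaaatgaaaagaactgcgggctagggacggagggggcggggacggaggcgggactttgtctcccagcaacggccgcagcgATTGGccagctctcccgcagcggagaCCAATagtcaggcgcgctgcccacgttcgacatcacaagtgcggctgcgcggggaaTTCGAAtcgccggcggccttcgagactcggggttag
Spc25, chr2:69206164-69206463, minus strand: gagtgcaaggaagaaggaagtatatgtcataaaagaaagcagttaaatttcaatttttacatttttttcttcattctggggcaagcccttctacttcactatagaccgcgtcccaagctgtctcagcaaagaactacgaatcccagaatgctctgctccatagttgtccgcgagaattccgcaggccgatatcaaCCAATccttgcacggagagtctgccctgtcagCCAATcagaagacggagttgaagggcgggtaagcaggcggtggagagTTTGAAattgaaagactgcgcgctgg
Cenpi, chrX:134307834-134308133, plus strand: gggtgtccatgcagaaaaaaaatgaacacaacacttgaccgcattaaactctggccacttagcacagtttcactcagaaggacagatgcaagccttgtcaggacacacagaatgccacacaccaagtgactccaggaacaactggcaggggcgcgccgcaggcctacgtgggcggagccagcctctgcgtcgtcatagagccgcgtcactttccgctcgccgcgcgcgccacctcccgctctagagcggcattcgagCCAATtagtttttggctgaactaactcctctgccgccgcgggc
Cdc20, chr4:118437294-118437593, minus strand: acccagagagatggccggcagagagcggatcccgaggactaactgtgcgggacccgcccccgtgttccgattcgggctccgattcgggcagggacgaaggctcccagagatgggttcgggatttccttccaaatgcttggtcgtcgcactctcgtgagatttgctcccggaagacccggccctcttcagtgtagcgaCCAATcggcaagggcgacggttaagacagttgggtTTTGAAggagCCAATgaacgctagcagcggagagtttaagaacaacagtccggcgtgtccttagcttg
Birc5, chr11:117848987-117849286, plus strand: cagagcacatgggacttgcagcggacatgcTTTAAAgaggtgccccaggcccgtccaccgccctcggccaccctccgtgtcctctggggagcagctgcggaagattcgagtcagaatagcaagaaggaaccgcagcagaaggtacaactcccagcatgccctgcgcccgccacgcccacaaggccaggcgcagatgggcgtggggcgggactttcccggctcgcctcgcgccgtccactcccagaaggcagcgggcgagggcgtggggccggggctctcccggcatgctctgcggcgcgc
Cenpw, chr10:30200491-30200790, minus strand: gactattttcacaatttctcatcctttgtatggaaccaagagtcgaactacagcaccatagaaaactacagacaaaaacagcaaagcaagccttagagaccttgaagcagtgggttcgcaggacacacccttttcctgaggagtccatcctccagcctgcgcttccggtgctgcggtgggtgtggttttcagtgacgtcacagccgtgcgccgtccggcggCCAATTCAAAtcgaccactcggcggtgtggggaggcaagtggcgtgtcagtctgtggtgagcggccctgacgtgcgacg

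These letters were common among the members. Within 50 bases of the start, the CHR core was present in 14 of 32 members (43.8%), against 5.71% of 26742 genes with a window. Any of the CHR spellings lay there in 16 members (50%), against 9.89% of genes. CCAAT was found anywhere in the window in 22 members (68.8%), against 41.0% of genes, and both a CHR spelling near the start and CCAAT in 15 members (46.9%), against 4.06%. Members with both did not share a direction. Their relative log2 differences with VD3 ran from -3.27 (Cenpf) to 0.68 (Cdc20), with a median of 0.09, and the 17 members without both ran from -1.499 (Cenpi) to 0.43 (Birc5), with a median of -0.28. Cenpf and Cdc20, at the opposite ends of the set, both hold the core close to the start and a pair of CCAAT boxes, as the printed windows show. Birc5 holds neither CCAAT nor a CHR spelling near the start in this window. A match is only a match of letters, and its absence from these windows says nothing of the factors.

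**Figure D2:**
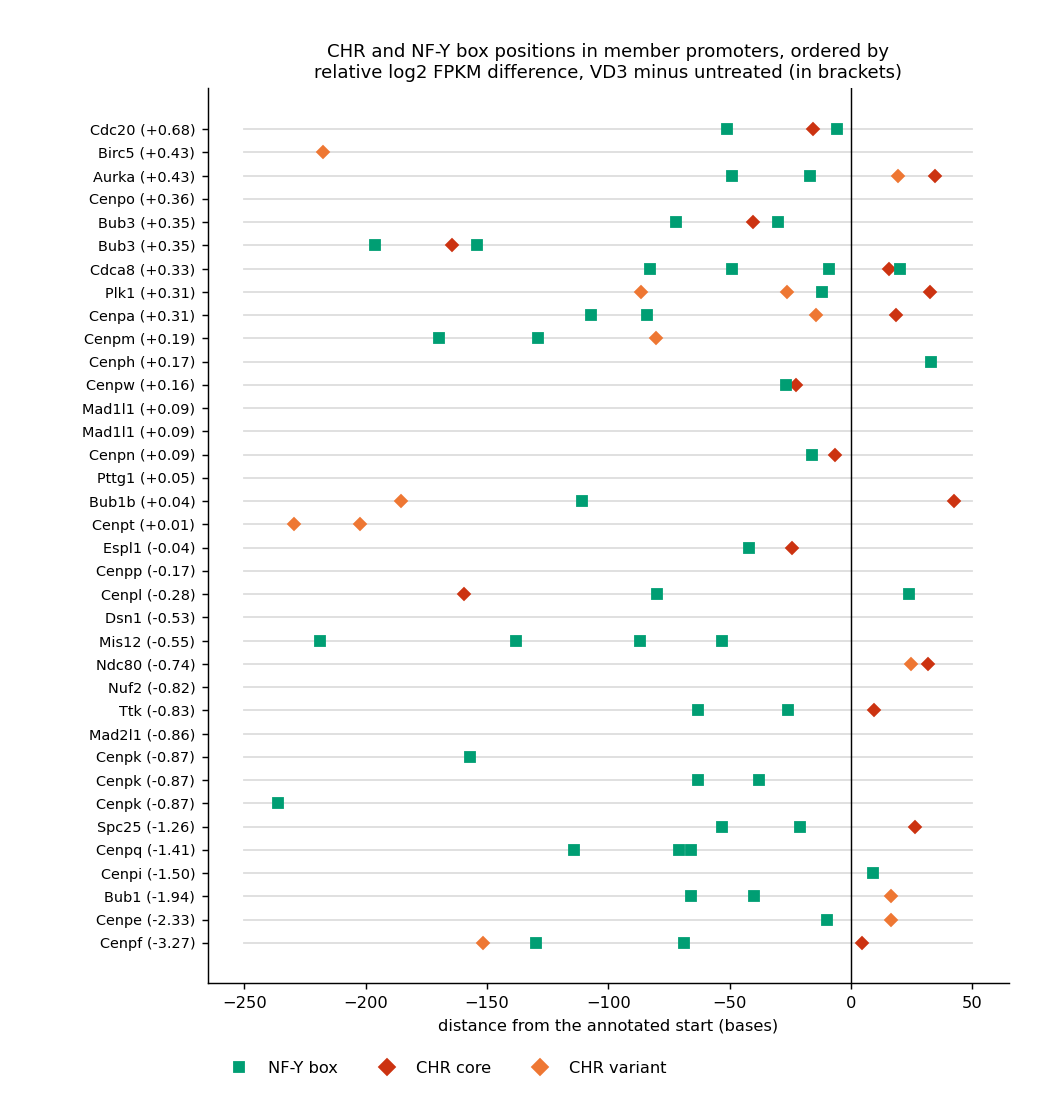
Positions of CHR core (red), CHR variant (orange) and CCAAT (NF-Y box, green) matches in the 36 promoter windows of 32 members, in bases from the annotated start, ordered from top to bottom by the relative log2 FPKM difference between VD3 and untreated cells. Genes with a match near the start appear from Cdc20 at the top to Cenpf at the bottom.

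The inner kinetochore genes had no common direction. Cenpa (chromosome 5, 30666777 to 30674830), the centromeric histone itself, stood at 191 FPKM in untreated cells (107 to 275), 306 with VD3 (164 to 449) and 356 with VD3+MM-401 (217 to 496). Both treated values were the higher, but all 3 intervals overlapped, and the relative differences were 0.31 and 0.62. Cenpw (chromosome 10, 30194569 to 30200560) encodes the histone-fold partner of CENP-T, which links the centromere to NDC80. It was the lowest member in untreated cells at 11.2 FPKM (7.03 to 15.3), and it stood at 16.6 with VD3 (10.7 to 22.4) and at 28.1 with VD3+MM-401 (17.6 to 38.53). The VD3 interval overlapped both others, while that of VD3+MM-401 lay wholly above untreated, a 2.51-fold ratio of FPKM. Its partner Cenpt read 74.8, 97.3 and 117 FPKM.

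The 4 genes of the CENP-H, -I, -K, -M subcomplex, which stand together in the inner network, differed in direction. Cenpi (X chromosome, 134308084 to 134362639) stood at 16.6 FPKM untreated (6.38 to 26.8), 7.003 with VD3 (3.92 to 10.1) and 13.7 with VD3+MM-401 (4.70 to 22.8). It was low with VD3 alone, 0.422 of the untreated FPKM, and the treated pools differed by 0.88 on the log2 scale, the largest positive difference of any member between them. Its intervals overlapped throughout. Cenpk read 29.2, 20.2 and 29.9 FPKM, so it was also lowest with VD3 alone. Cenph, at 43.52, 63.3 and 75.9 FPKM, and Cenpm, at 73.8, 109 and 95.4 FPKM, were higher in both treated pools, with overlapping intervals. The ratio of Cenph to Cenpk FPKM accordingly went from 1.49 in untreated cells to 3.13 with VD3 and 2.54 with VD3+MM-401. Cenpk is lower in GC content (36.1%) than Cenph (43.9%). After the adjustment for GC content and length described below, Cenph read 0.50 with VD3 and 0.43 with VD3+MM-401. Cenpk then read 0.60 and 0.44, so this pair no longer differed in direction.

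The CENP-O, -P, -Q genes were equally mixed. Cenpq (chromosome 17, 40923051 to 40935047) stood at 21.1 FPKM untreated (9.35 to 32.8), 9.72 with VD3 (3.14 to 16.3) and 13.7 with VD3+MM-401 (2.14 to 25.3), lower in both treated pools with overlapping intervals. Cenpp (chromosome 13, 49464023 to 49652785) stood at 23.6 (10.1 to 37.1), 27.1 (9.62 to 44.6) and 45.1 FPKM (12.8 to 77.4), highest with VD3+MM-401 and within overlapping intervals. Cenpo (chromosome 12, 4196004 to 4234294) stood at 20.55 (0.929 to 40.2), 34.49 (4.61 to 64.4) and 22.1 FPKM (6.47 to 37.7), so its highest value was with VD3 alone. These 3 genes had wider count errors than most members, from 27.2% to 42.3% of the count. Cenpl and Cenpn encode a pair that reads CENP-A nucleosomes. Cenpl stood at 14.6 (7.99 to 21.1), 15.47 (8.86 to 22.1) and 16.7 FPKM (10.502 to 22.8), and Cenpn at 50.8, 69.8 and 57.6 FPKM, with all intervals overlapping. Over the 12 inner kinetochore genes, the median log2 difference was 0.41 with VD3 and 0.28 with VD3+MM-401, close to the 0.36 and 0.27 of the median gene.

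Among the NDC80 and MIS12 complex genes, which form the microtubule grip and its platform, 6 of 7 stood below the median gene in each treated pool by FPKM. By count 6 did with VD3+MM-401, and with VD3 Nsl1 stood just above. NDC80 is a rod of paired chains, with Ndc80 and Nuf2 at the microtubule end and Spc24 and Spc25 at the inner end. Spc25 (chromosome 2, 69193895 to 69206194) stood at 83.7 FPKM untreated (54.3 to 113), 44.6 with VD3 (28.3 to 60.9) and 69.9 with VD3+MM-401 (45.2 to 94.48). The VD3 value was the lowest, and its interval overlapped that of untreated cells until the median gene was subtracted. Relative to the median gene it differed by -1.26 with VD3, the only member then called in that comparison, where 6.58% of genes were called lower and 0.422% higher. Spc24 (chromosome 9, 21755442 to 21760303), the chain it pairs with, stood at 80.8 (29.1 to 132), 135 (64.6 to 205) and 139 FPKM (38.6 to 239), higher in both treated pools. The ratio of Spc24 to Spc25 FPKM was 0.965 in untreated cells, 3.02 with VD3 and 1.99 with VD3+MM-401, and by count 0.675, 2.17 and 1.69. Ndc80 and Nuf2, the other pair of chains, kept a ratio of 0.725, 0.764 and 0.841.

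Ndc80 itself read 25.4, 19.3 and 24.9 FPKM and Nuf2 35.03, 25.3 and 29.6, lowest with VD3 and within overlapping intervals. Of the MIS12 complex genes, Mis12 read 41.9, 36.8 and 42.8 FPKM, and Dsn1 read 42.9, 38.3 and 36.02. Nsl1 (chromosome 1, 191063012 to 191086474) stood at 13.7 (4.19 to 23.1), 14.7 (3.41 to 25.9) and 8.78 FPKM (3.56 to 13.999), lowest with VD3+MM-401. Its estimated counts did not follow, at 2116, 2868 and 2296, so the low FPKM with VD3+MM-401 is not matched by fewer counts.

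The lowest ratios of VD3 to untreated FPKM in the set belonged to Cenpf and Cenpe. They encode the large coiled-coil protein and the plus-end kinesin of the fibrous corona on the outermost kinetochore. Cenpf (chromosome 1, 189640606 to 189688086) stood at 52.98 FPKM in untreated cells (0 to 125), 6.18 with VD3 (0 to 15.02) and 4.47 with VD3+MM-401 (0 to 11.47). All 3 FPKM intervals begin at 0 and overlap, so no call could be made on that scale. Its counts were 16432, 1813 and 1628, with standard deviations of 16.6% to 17.8%, and the counts of both treated pools lay far below untreated beyond 2 standard deviations. The count ratio to untreated was 0.110 with VD3 and 0.0991 with VD3+MM-401. The relative log2 differences in FPKM, -3.27 and -3.57, were the lowest of the members in both comparisons.

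Cenpe (chromosome 3, 135212537 to 135273611), the motor that carries late chromosomes to the spindle equator, stood at 39.98 FPKM untreated (9.07 to 70.9), 9.46 with VD3 (1.32 to 17.6) and 15.98 with VD3+MM-401 (0 to 35.7). Both treated values were below untreated, with overlapping intervals. Its counts were 13592, 2774 and 2276, so by count the VD3+MM-401 pool was the lowest and by FPKM the VD3 pool was. The relative difference with VD3+MM-401 was -1.54 by FPKM and -2.85 by count. The direction against untreated is the same on both scales, whereas the order of the treated pools is not settled.

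The 6 checkpoint genes split between a strongly lower Bub1 and the rest. Bub1 (chromosome 2, 127801122 to 127831865) encodes the kinase that marks centromeric histone H2A and brings other checkpoint proteins to the kinetochore. It stood at 125 FPKM in untreated cells (41.3 to 208), 41.2 with VD3 (12.7 to 69.7) and 44.6 with VD3+MM-401 (25.9 to 63.4). Both treated pools were low, at 0.331 and 0.358 of untreated, yet the wide untreated interval overlapped both. Bub1 counts were 18348, 6189 and 9465, and intervals of 2 standard deviations lay apart between untreated and VD3. With VD3+MM-401 the count ratio to untreated was 0.516, just short of 2-fold, with intervals that just overlapped, and Bub1 was called lower there, beside Cenpf and Cenpe, after counts were scaled to the pools' totals, where 5.84% of genes were called lower and 1.85% higher. Bub1b (chromosome 2, 118598211 to 118641591), encoding BUBR1 of the mitotic checkpoint complex, read 145, 192 and 166 FPKM, with overlapping intervals. The ratio of Bub1b to Bub1 FPKM was 1.16 in untreated cells, 4.66 with VD3 and 3.72 with VD3+MM-401.

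Mad2l1 (chromosome 6, 66535390 to 66547220) encodes MAD2, which binds and inhibits CDC20, and was the member with the highest untreated level. It stood at 291 FPKM (0 to 582), 206 with VD3 (0 to 422) and 167 with VD3+MM-401 (0 to 427). By FPKM both treated pools were the lower, but the intervals begin at 0, and of the counts of 9995, 8622 and 10073 the last was not below untreated. Ttk, the kinase MPS1 that starts checkpoint signalling, read 49.995, 35.8 and 36.2 FPKM, lower in both treated pools with overlapping intervals. Mad1l1, the MAD2 anchor, read 54.6, 75.1 and 99.96 FPKM in its shared locus. Bub3, the adaptor of BUB1 and BUBR1, read 169, 277 and 223 FPKM. Its deposited locus spans chromosome 7 from 130162451 to 133124354, far wider than the gene, its intervals begin at 0 and its count errors reach 61.1%, so no direction can be read for it.

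The chromosomal passenger complex, the Aurora B kinase with its scaffold and targeting subunits, is described by 4 members. All 4 stood above the median gene with VD3, and 3 of 4 did with VD3+MM-401, on the FPKM scale and by count. All 4 are among the 12 members of highest GC content. After the adjustment for GC content and length described below, their median was 0.05 with VD3 and -0.13 with VD3+MM-401. Birc5 (chromosome 11, 117849251 to 117855743), encoding survivin, which brings the complex to the centromere, stood at 191 FPKM untreated (126 to 257), 334 with VD3 (221 to 446) and 463 with VD3+MM-401 (287 to 638). The interval of VD3+MM-401 lay above that of untreated cells, a 2.42-fold ratio of FPKM and 2.26-fold of counts. The VD3 interval overlapped both others. Cdca8, encoding the survivin partner borealin, read 174, 282 and 217 FPKM, highest with VD3 alone. The scaffold gene Incenp, at 65.2, 93.3 and 75.4 FPKM, and the kinase gene Aurkb, at 63.49, 84.7 and 85.1, varied within overlapping intervals. The ratio of Birc5 to Incenp FPKM was 2.93, 3.58 and 6.14.

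The 3 spindle kinase and activator genes stood above the median gene with VD3, and with VD3+MM-401 Aurka did by FPKM, while Plk1 and Tpx2 did not. Aurka (chromosome 2, 172356190 to 172370535), the centrosomal Aurora A kinase, stood at 117 FPKM untreated (75.98 to 158), 203 with VD3 (133 to 272) and 195 with VD3+MM-401 (124 to 266), above untreated in both treated pools with overlapping intervals. Plk1 (chromosome 7, 122159439 to 122169873), which acts from mitotic entry to cytokinesis, stood at 137 (81.8 to 191), 219 (129 to 308) and 155 FPKM (71.4 to 238). Tpx2 (chromosome 2, 152847964 to 152895321), the activator of Aurora A on the spindle, stood at 140.2 (73.6 to 207), 196 (80.1 to 312) and 129 FPKM (55.8 to 203). Plk1 and Tpx2 were both highest with VD3 alone, and all 3 genes stood below the median gene in the comparison of VD3+MM-401 with VD3, by -0.08 (Aurka), -0.52 (Plk1) and -0.62 (Tpx2). By count these relative differences were -0.16, -0.31 and -0.27. None of them exceeded the authors' intervals.

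Of the 3 genes that start anaphase, Cdc20 differed most. Cdc20 (chromosome 4, 118432901 to 118437352), the APC/C coactivator and the checkpoint's target, stood at 191 FPKM untreated (102 to 281), 395 with VD3 (211 to 578) and 411 with VD3+MM-401 (166 to 656). Both treated pools were just over 2-fold higher by FPKM (2.06 and 2.15) and just under by count (1.85 and 1.82), and the intervals overlapped. Set against its inhibitor, the ratio of Cdc20 to Mad2l1 FPKM was 0.659 in untreated cells, 1.91 with VD3 and 2.45 with VD3+MM-401. By count, the ratio was 1.52, 3.26 and 2.75. Cdc20 has 55.6% GC content and Mad2l1 40.8%. After the adjustment for GC content and length described below, Cdc20 read 0.42 with VD3 and 0.49 with VD3+MM-401, and Mad2l1 -0.02 and -0.69. Pttg1, encoding securin, read 149, 199 and 263 FPKM, highest with VD3+MM-401, and Espl1, encoding the separase it inhibits, read 39.48, 49.6 and 38.1. Their intervals overlapped in every comparison.

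FPKM and counts can be set side by side for each member. For VD3 against untreated, the relative differences had the same sign on both scales in 36 of 37 members, and no member differed by more than 0.5 between the scales. Both scales put 12 members below -0.5 (Cenpi, Cenpk, Cenpq, Ndc80, Nuf2, Spc25, Mis12, Cenpe, Cenpf, Bub1, Mad2l1 and Ttk) and 0 above 0.5. The share of all genes past 0.5 on both scales was not computed, here or in the comparisons that follow. These counts therefore cannot be read as a trait of the members. Genes at large also leaned lower with VD3, with 8.69% at least 2-fold lower and 3.54% at least 2-fold higher by FPKM, disregarding intervals. For VD3+MM-401 against untreated, the signs were the same in 32 members, with 8 below -0.5 (Cenpi, Cenpq, Nuf2, Spc25, Cenpe, Cenpf, Bub1 and Ttk) and 8 above 0.5 (Cenpa, Cenph, Cenpp, Cenpw, Spc24, Birc5, Cdc20 and Pttg1) on both scales. Nsl1, Cenpe and Mad2l1 differed there by more than 0.5 between the scales. Between the treated pools, Cenpi, Cenpk, Cenpp, Cenpw and Spc25 were above 0.5 on both scales with MM-401 added, 0 members were below -0.5 on both. All 5 are among the 12 members of lowest GC content, whose trend is given with the composition of the transcripts below. Cenpe, Bub1, Mad2l1 and Mad1l1 differed by more than 0.5 between the scales. The plot of differences by FPKM and by count shows these pairs.

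**Figure D3:**
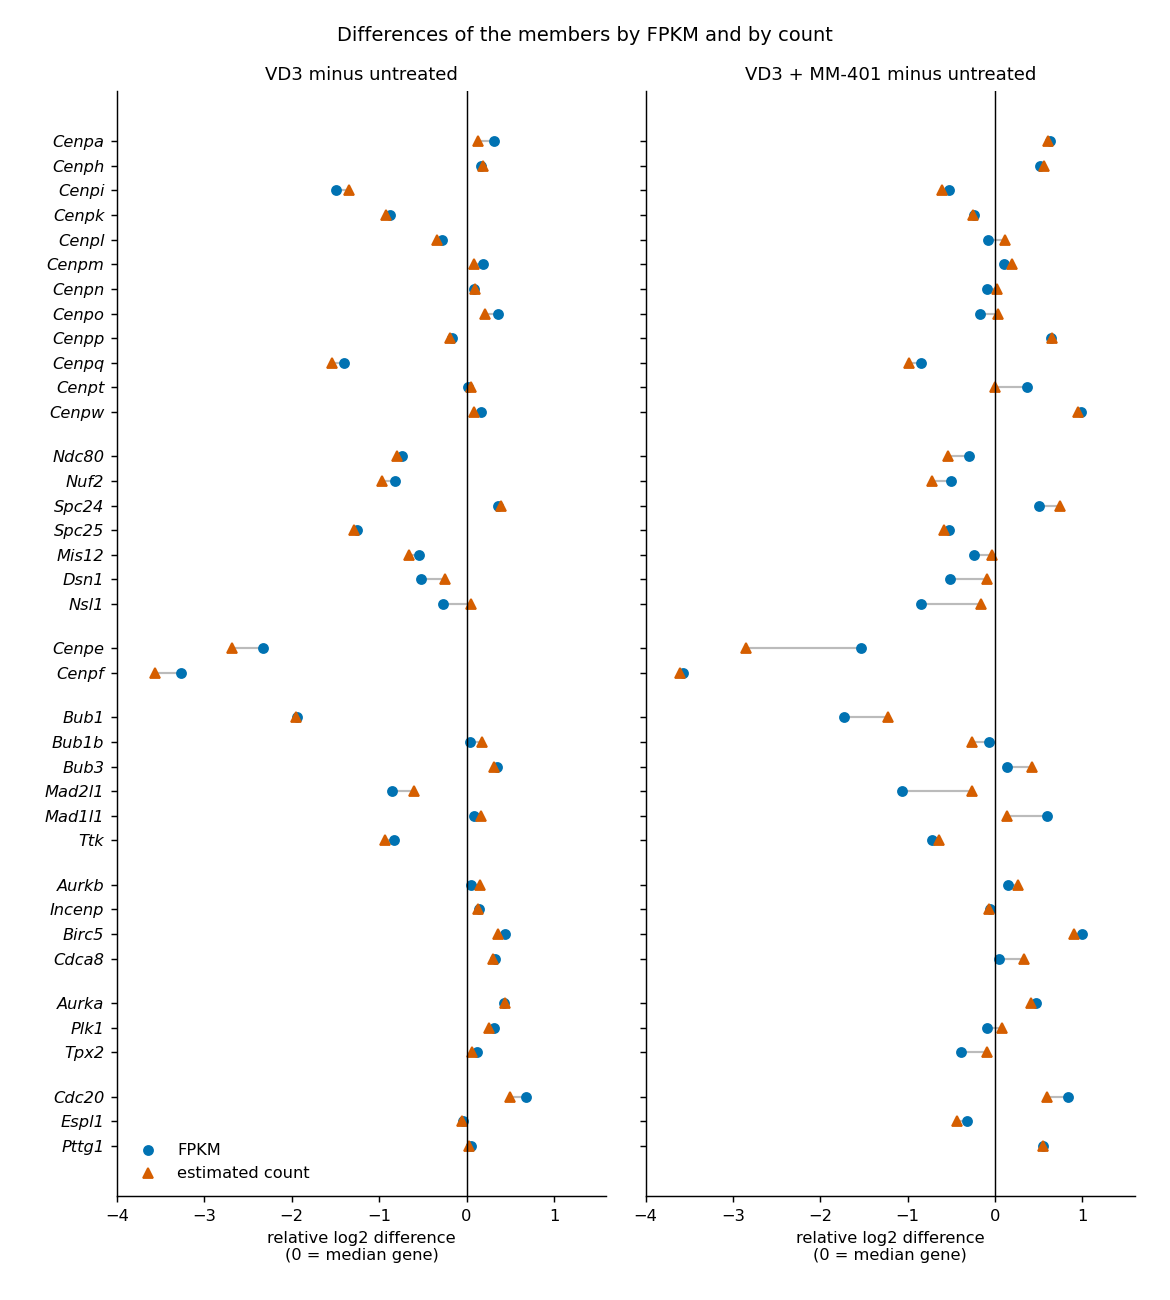
Relative log2 difference (0 is the median gene) of each member by FPKM (circles) and by estimated count (triangles), for VD3 minus untreated (left) and VD3+MM-401 minus untreated (right), which share the untreated pool. Cenpf and Cenpe lie farthest left, and the right panel shows the gap between the scales for Cenpe, Mad2l1 and Nsl1.

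The direction of a member went with the composition of its transcript. For each gene, GC content and length were taken from its principal protein-coding transcript in GENCODE vM21. Across the 37 members, the log2 FPKM difference of VD3 from untreated had a Spearman correlation of 0.687 with GC content and -0.290 with length. Across 8316 other protein-coding genes the same correlations were 0.561 and -0.392. For VD3+MM-401 against untreated they were 0.486 and -0.565 over members and 0.402 and -0.561 over 8349 other genes. Between the treated pools the trend with GC content had the opposite sign, with -0.468 for GC content and -0.469 for length over members and -0.235 and -0.289 over 8173 other genes. These are descriptions across genes of the same pools, which are not independent replicates. Of the 12 members with the lowest GC content (35.8% to 43.8%), 1 stood above the median gene with VD3, and their median relative difference was -1.07. Of the 12 with the highest (51.3% to 56.8%), 11 did, with a median of 0.25. For VD3+MM-401 against VD3, the median relative difference of the 12 lowest in GC was 0.48, and -0.04 after the adjustment described next.

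Cenpf, Cenpe and Bub1 are all low in GC, at 43.3%, 42.9% and 41.0%, and long, with principal transcripts of 11130, 7910 and 3421 bases. After a fit over all protein-coding genes removed the trend with GC content and length, Cenpf was still the lowest member, at -1.99 with VD3 and -2.57 with VD3+MM-401 on the log2 scale, with overlapping intervals. Cenpe then read -1.17 and -0.64, and Bub1 -0.87 and -1.01. Spc25 read -0.73 and -0.50, Cdc20 0.42 and 0.49, and Birc5 0.18 and 0.38 (below 2-fold). Of the genes set in ratios to them above, Spc24 read 0.14 and 0.07, Bub1b 0.11 and 0.01, and Incenp -0.0003 and -0.14. These values depended on the transcript chosen. With the longest transcript of each gene, Birc5 with VD3+MM-401 read 1.13, which is above 2-fold, and Spc25 with VD3 read -1.09. Cenpw, whose transcript had the lowest GC content of the members at 35.8%, went the other way and read 1.78 and 1.85. It was called higher in both comparisons, where 0.467% and 0.525% of genes were. No member was called lower then, where 0.922% and 0.775% of genes were. Unadjusted, Cenpw with VD3 read 0.53 and was not called, so that call rests on the fit at low GC content. Cenpk, at 36.1%, moved from -0.51 to 0.60 with VD3. The median member was at -0.02 and -0.12 after this adjustment. For VD3+MM-401 against VD3, the adjusted differences were 0.65 for Cenpi, 0.32 for Cenpp, 0.19 for Spc25, -0.03 for Cenpw and -0.25 for Cenpk, so that Cenpi alone of these 5 stayed above 0.5. What gave rise to the trend was not tested.

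**Figure D4:**
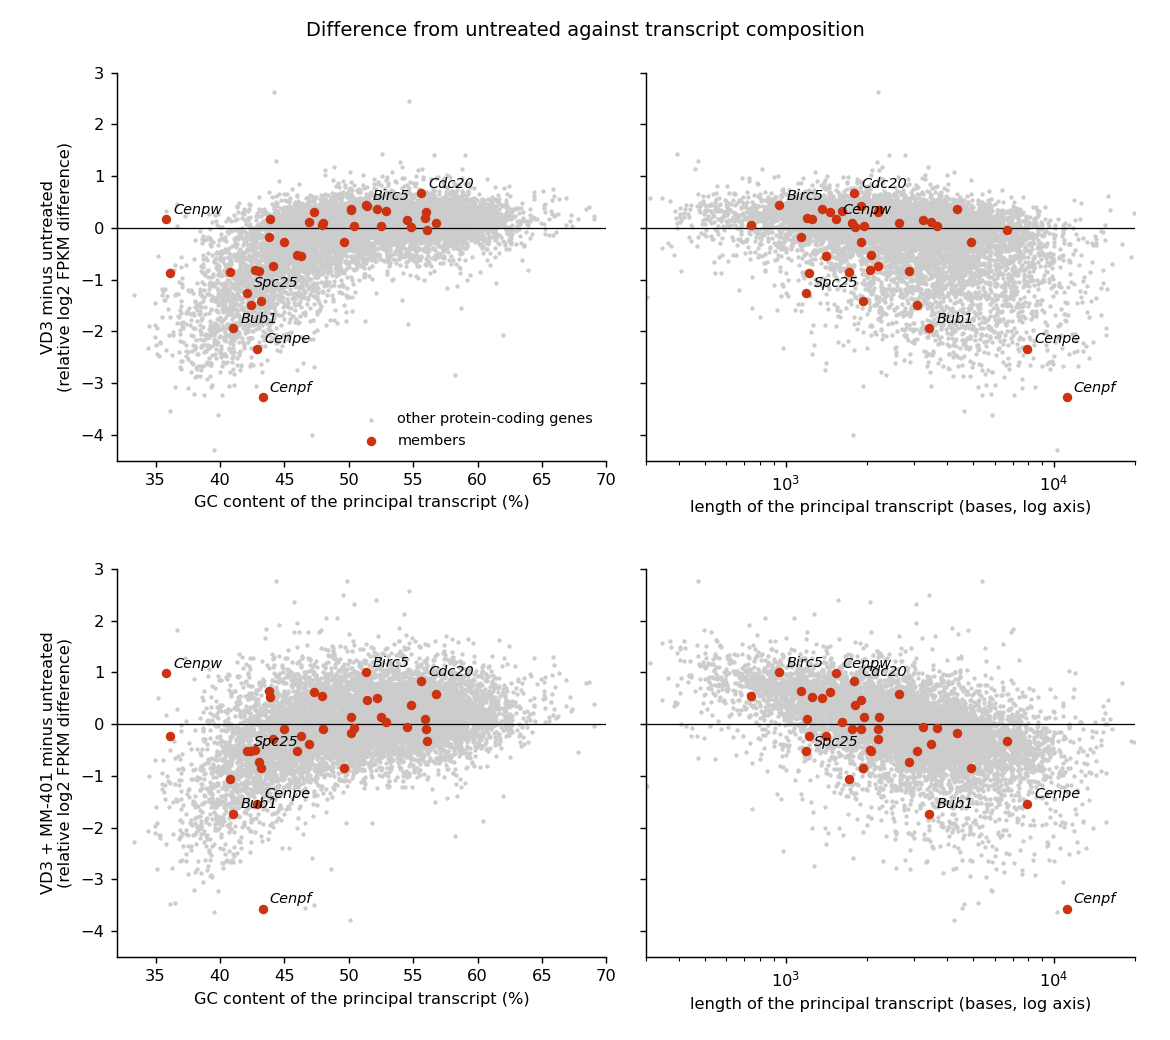
Relative log2 FPKM difference from untreated against GC content (left) and length (right, log axis) of the principal transcript, for VD3 (top) and VD3+MM-401 (bottom), with the 37 members in red and other protein-coding genes in grey. The members follow the cloud of other genes, with Cenpf below it and Cenpw above it at low GC content.

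Other genes of the same pathways were described from lists by role. Of 25 further kinetochore and centromere genes, 3 were called lower in both treated pools and 0 higher. Knl1, the scaffold that docks BUB1 and BUB3, read 12.9, 1.42 and 1.30 FPKM in the untreated, VD3 and VD3+MM-401 pools. Sgo2a, a shugoshin that protects centromeric cohesin, read 28.7, 6.38 and 5.96. Both genes were low in both treated pools. Of 27 spindle motor and microtubule organiser genes, 4 were called lower in each comparison with untreated cells (Kif20b, Kif18a, Kif11 and Hmmr) and 0 higher, and 7 and 6 stood above the median gene. Kif11, the motor that separates spindle poles, read 58.002, 18.8 and 23.9 FPKM.

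Of 31 genes for mitotic cyclins, CDK1 control and the APC/C, 2 were called lower with VD3, the APC/C subunit gene Cdc27 (38.4, 12.2 and 18.49 FPKM) and the centriole kinase gene Plk4 (30.4, 9.06 and 15.9 FPKM), and 0 with VD3+MM-401. Of 33 DNA replication genes matched, 1 was called lower in both, the DNA polymerase alpha gene Pola1, at 23.6, 6.59 and 9.37 FPKM. The genes named from these lists are low in GC content too, apart from Sgo2a, for which no value was matched. Adjusted for GC content and length, Knl1 read -0.98 with VD3 and -1.49 with VD3+MM-401, Kif20b -1.46 and -1.82, and Kif18a -1.15 and -1.64. Kif11 read -0.89 and -0.75, Hmmr -0.57 and -0.78, and Pola1 -0.86 and -0.63, all short of 2-fold. With VD3, Plk4 read -1.08 and Cdc27 -0.47. None of the 19 transcription regulators of late cell cycle genes was called, and no gene of these 5 lists was called higher. Between the treated pools, none was called in any of these lists. The called shares of 3 of 25 and 4 of 27 stand beside 4.22% and 2.69% of all genes called lower with VD3 and with VD3+MM-401. Called higher were 0.926% and 4.26% of all genes. By estimated counts as deposited, 4 of 25 and 9 of 27 were called lower with VD3, against 6.99% of genes. With VD3+MM-401, 3 and 7 were, against 4.09%. Each of the other lists had at most 2 called lower by count. Bod1 and Anapc11 were called higher by count with VD3+MM-401, against 5.22% of genes. The plot of the lists shows the members beside them.

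**Figure D5:**
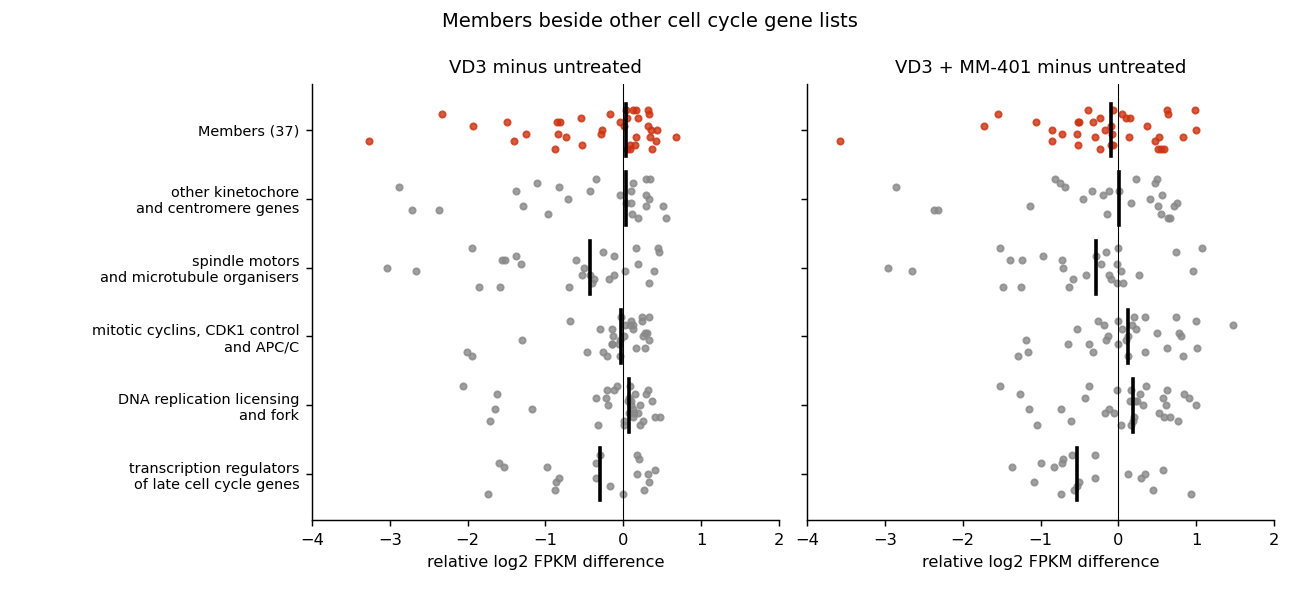
Relative log2 FPKM difference from untreated for each gene of the member set (red) and of 5 further lists (grey), for VD3 (left) and VD3+MM-401 (right). Black bars are medians, and the member medians are 0.04 and -0.09.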

How the data were processed

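RNA was sequenced from 6 libraries in 3 groups of 2. Reads were handled by the authors with TopHat2 2.1.1, SAMtools 1.5 and Cufflinks 2.2.1 against mm10, per the submitters' processing notes. Order, settings and annotation were not given in the sources used here. Per the file headers, the authors deposited FPKM with a lower and an upper bound for 62490 loci, and estimated counts with their variance, in 1 pooled column per group. No strand setting is stated, so reads of overlapping or antisense genes cannot be separated. The 14 loci without a valid status were left out, and loci sharing a name were summed, giving 49415 names or groups of names. The total estimated counts per pool are in the report. Their differences remain in FPKM and in the counts as deposited, and only the scaled counts divide by them. No spread between libraries could be computed.

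Differences are log2 ratios of FPKM + 1 (understating differences of low genes), computed with Python 3.11.15, numpy 2.4.6, pandas 2.3.3 and scipy 1.17.1. Calls needed 2-fold, intervals apart and 5 FPKM. Count intervals were 2 standard deviations. The GC and length adjustment was tried on simulated data with a trend linear in GC content and log2 length, which the fitted surface can follow. That run cannot show how well the fit holds for the measured genes. In the centred and adjusted settings the treated pool's interval was shifted with the difference, a choice made after a first run. GC content and length were first taken from the longest transcript. They were changed to the principal (APPRIS) transcript after those values had been seen, and both are reported. Members and lists were chosen with earlier results of these data known. Full values were given to members called in any comparison, the 5 highest and 5 lowest per comparison, and the 3 highest and 3 lowest untreated levels. Other members are given by their pooled FPKM. Of each list, up to 4 called genes could be named. The values of 1 called kinetochore list gene are not reported here. Other settings were scaled counts, centring, another pseudocount, no FPKM minimum, another fold, no interval criterion, single-name loci and the adjustment. Of the lists, 33 of 35 replication genes and every gene of the others were matched, older symbols through RefSeq synonyms. Gene coordinates are from GENCODE vM21 (GRCm38, the sequence of mm10), counted from 1.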

Additional observations from a re-analysis of the deposited data

How the results depend on the processing

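No paired analysis was possible because the tables hold 1 pooled column per group, and for the same reason no replicate could be left out. The reported counts of called members were 0 higher and 0 lower for VD3 against untreated, 2 and 0 for VD3+MM-401 against untreated, and 0 and 0 between the treated pools, with median differences of 0.40, 0.18 and 0.06. The last pair of counts stayed at 0 in every setting run. A pseudocount of 0.1, no FPKM minimum, a 1.5-fold threshold and single-name loci changed no count of called members and moved no median by over 0.1.

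For VD3 against untreated, lower calls numbered 5 with counts scaled to the pools' totals (Cenpi and Spc25 joined Cenpf, Cenpe and Bub1), 1 after centring on the median gene, 5 without the interval criterion, 3 with estimated counts as deposited, 3 with the FPKM fold and the interval of the count, and 1 with the longest-transcript adjustment. Higher calls numbered 1 without the interval criterion, 1 with the adjustment for GC content and length, and 1 with its longest-transcript form. The median was 0.20 (scaled counts), 0.0376 (centred), -0.0166 (adjusted) and 0.0571 (adjusted, longest transcript).

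For VD3+MM-401 against untreated, higher calls numbered 0 with scaled counts, 0 after centring and 1 after adjustment. Lower calls numbered 3 with scaled counts, 3 without the interval criterion, 2 with counts as deposited and 2 with the FPKM fold and the interval of the count. The median was 0.0358 (scaled), -0.0884 (centred), -0.121 (adjusted) and -0.0906 (adjusted, longest transcript). Between the treated pools the median was -0.0778 adjusted and -0.0855 with the longest transcript. Scaling and centring subtract a shift shared by most genes, and intervals of the count are narrower than those of FPKM for the median member. The cause of the other shifts was not tested. Counts as deposited, the FPKM fold with the interval of the count and the longest-transcript form were chosen after seeing the data. Of 771 recomputed differences of single members, 685 moved by no more than an error taken from the upper arms of the authors' intervals, whose level is unknown, and 86 moved by more. The 2 called differences kept their sign. The sign of 4 members with VD3 (Cenpl, Cenpp, Nsl1 and Espl1) and of 8 with VD3+MM-401 (Cenpk, Cenpl, Cenpn, Cenpo, Mis12, Bub1b, Incenp and Plk1) depended on centring. More signs depended on the adjustment for GC content and length, 9 with VD3 (Cenpk, Cenpm, Cenpt, Nsl1, Mad1l1, Aurkb, Incenp, Espl1 and Pttg1), 12 with VD3+MM-401 (Cenpi, Cenpl, Cenpm, Cenpn, Cenpo, Mis12, Bub3, Aurkb, Incenp, Cdca8, Plk1 and Pttg1) and 10 between the treated pools. There, 8 signs differed by count as deposited.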
